A study of Mus musculus with 12 samples.

Results

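The genes described here are 10 genes of the endoplasmic reticulum (ER) stress response in mouse brain: Atf4, Xbp1, Ddit3, Hspa5, Hsp90b1, Pdia3, Pdia4, Pdia6, Calr and Dnajb9. They were chosen by symbol, and all 10 are among the 21872 gene symbols of the deposited count table and passed the filter on low counts in every comparison. Bulk mRNA was sequenced from 2 brain regions, prefrontal cortex (PFC) and striatum, of mice of the C57BL/6J strain, aged 24 days (P24). The 4 groups of 3 libraries are lesioned PFC, control PFC, lesioned striatum and control striatum, and the lesioned groups are labelled ADHD. In this model of ADHD, dopamine neurons of young mice are destroyed with the neurotoxin 6-hydroxydopamine (6-OHDA). How much 6-OHDA was given, by which route and when, and what the controls received, is not stated in the labels. Whether each library of a group is from its own animal is not stated either, and the spread that p-values rest on may be technical.

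Membrane and secreted proteins are folded in the ER by chaperones, lectins and protein disulfide isomerases. When unfolded protein accumulates there, the sensors ATF6, IRE1 and PERK start the unfolded protein response: ATF6 is cut to an active transcription factor, IRE1 splices Xbp1 mRNA into the form that encodes active XBP1, and PERK slows translation while the mRNA of Atf4 is translated more. In brain, neurons and glia both depend on this system, and 6-OHDA is known to induce it in cultured dopamine cells. The libraries here come from regions that dopamine axons reach, not from the midbrain where the cell bodies of those neurons lie. The counts do not separate spliced from unspliced Xbp1 mRNA, and no mRNA count shows how much ATF4 protein is made.

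Total counts lay between 15078631 and 20925452 per library. The biological coefficient of variation between libraries of a group was 5.78% in PFC and 14.9% in striatum, and each lesion effect was tested on the 6 libraries of its own region. Cortical excitatory neuron markers summed to between 2605 and 2856 CPM (counts scaled to library size) in PFC libraries and between 77.6 and 923 CPM in striatal ones, and striatal projection neuron markers to between 424 and 1048 CPM in PFC and between 1911 and 11395 CPM in striatum. A pair of striatal libraries stood apart: lesioned library 1 had the 11395 CPM of projection neuron markers, and control library 2 had 2232 CPM of choroid plexus and ependymal markers, against 45.0 to 102 CPM in the other striatal libraries. Control library 2 also had the 923 CPM of cortical excitatory neuron markers, against 77.6 to 304 CPM in the other striatal libraries. Striatal results are also given without that pair, an alternative chosen after the data had been seen. In bulk tissue, fewer cells of a type and less RNA per cell cannot be told apart.

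In the GENCODE M21 annotation (GRCm38) the genes that the lesion results turn on lie at chr2:34771970-34777547 on the plus strand (Hspa5), chr6:47796141-47813430 on the minus strand (Pdia4) and chr12:17266545-17284770 on the plus strand (Pdia6). In control PFC the highest level per length of the 10 genes was that of Calr, a calcium-binding lectin chaperone, with 108 ± 2.10 CPM per kb of exon (SD, n = 3). Hsp90b1, which encodes the ER form of HSP90, followed with 78.3 ± 1.08 CPM per kb. Hspa5, which encodes the HSP70 chaperone BiP, had 64.1 ± 3.03 CPM per kb, and Pdia3, the isomerase that works with calreticulin and calnexin on glycoproteins, had 61.9 ± 2.25 CPM per kb. Those last values overlapped between libraries. Atf4 followed with 47.2 ± 1.89 CPM per kb, then Pdia6 with 26.9 ± 0.730, Xbp1 with 25.5 ± 0.606, Pdia4 with 18.5 ± 0.899 and the BiP co-chaperone gene Dnajb9 with 17.9 ± 0.685 CPM per kb. Pdia4 and Dnajb9 overlapped, while Pdia6 lay above Xbp1 in every library of the group. Ddit3, which encodes the pro-apoptotic factor CHOP, was lowest with 8.47 ± 0.808 CPM per kb, on counts of 182 to 310 over the 12 libraries. In lesioned PFC the order differed in 2 places: Hspa5, with 55.7 ± 0.864 CPM per kb, stood below Pdia3, with 58.3 ± 2.90 and overlapping libraries, and Pdia4, with 14.2 ± 0.873, stood below Dnajb9, with 16.5 ± 1.26 CPM per kb and no overlap.

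**Figure D1:**
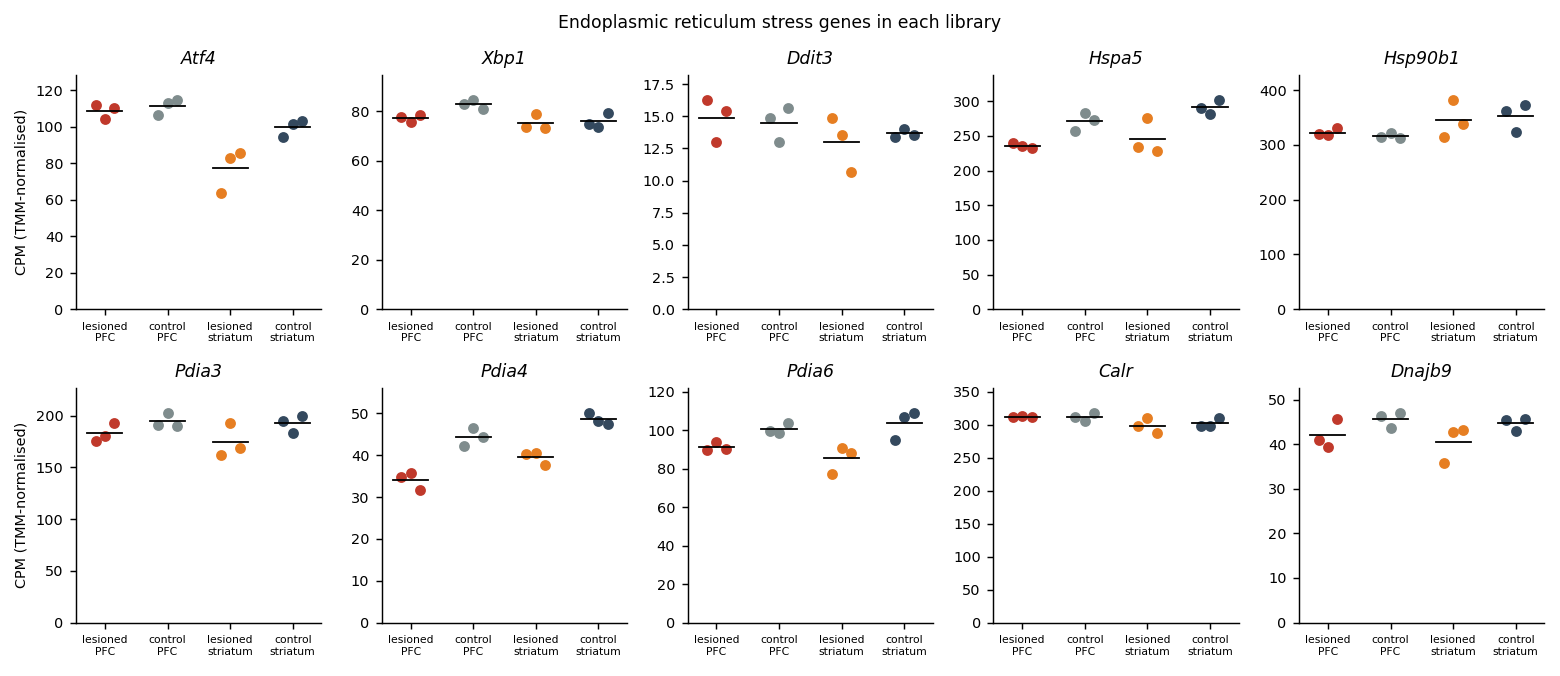
TMM-normalised CPM of the 10 genes in each of the 12 libraries (points) with group means (bars), lesioned left of control within PFC and within striatum, y axes from 0. Within each region, the lesioned libraries of Hspa5, Pdia4 and Pdia6 lie below the control libraries of that region, while Calr stays between 288 and 318 CPM in all 12.

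Hspa5 is the best known target of ATF6 in this group of genes. ATF6 acts through the ER stress response element (ERSE), in which CCAAT and CCACG stand 9 bases apart. Windows of 300 bases, from 250 bases before the RefSeq start site to 50 after it (RefSeq, GRCm38.p6), were matched to 10 of 10 genes and searched on both strands for CCAAT and CCACG at that spacing, with any bases between. Matches were found in 4 of the 10, against 0.119% of the 32851 windows in the table. The 10 were chosen as ER stress genes and ERSE is an element of that response, so these shares are not a test of enrichment. Hspa5 and Pdia6, whose lesioned libraries lay below the controls in both regions, hold 1 match each, and Hsp90b1 with 2 and Calr with 1 also hold it. The 4 windows are shown, with the matches in capitals, because genes with the element are found both among those that were lower and among those that were not. The windows are chr2:34771840-34772139 on the plus strand for Hspa5, chr12:17266339-17266638 on the plus strand for Pdia6, chr10:86705395-86705694 on the minus strand for Hsp90b1 and chr8:84846882-84847181 on the minus strand for Calr, each written 5′ to 3′ in the direction of the gene.
Hspa5: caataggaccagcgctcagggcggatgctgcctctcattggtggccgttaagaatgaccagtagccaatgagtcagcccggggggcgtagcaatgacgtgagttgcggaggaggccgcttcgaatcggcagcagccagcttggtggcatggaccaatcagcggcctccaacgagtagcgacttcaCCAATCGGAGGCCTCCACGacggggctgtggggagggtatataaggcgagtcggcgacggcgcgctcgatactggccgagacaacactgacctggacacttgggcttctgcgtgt
Pdia6: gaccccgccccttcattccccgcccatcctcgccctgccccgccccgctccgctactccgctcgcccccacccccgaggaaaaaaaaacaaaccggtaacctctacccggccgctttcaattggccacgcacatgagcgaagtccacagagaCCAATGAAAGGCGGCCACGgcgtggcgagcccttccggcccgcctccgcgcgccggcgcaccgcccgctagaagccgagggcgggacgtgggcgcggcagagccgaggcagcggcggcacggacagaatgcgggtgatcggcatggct
Hsp90b1: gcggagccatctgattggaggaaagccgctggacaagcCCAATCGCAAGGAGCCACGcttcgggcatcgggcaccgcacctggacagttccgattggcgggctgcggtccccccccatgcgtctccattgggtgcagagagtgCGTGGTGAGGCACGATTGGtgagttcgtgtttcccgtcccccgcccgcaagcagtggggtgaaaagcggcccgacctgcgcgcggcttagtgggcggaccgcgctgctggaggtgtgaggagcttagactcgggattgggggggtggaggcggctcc
Calr: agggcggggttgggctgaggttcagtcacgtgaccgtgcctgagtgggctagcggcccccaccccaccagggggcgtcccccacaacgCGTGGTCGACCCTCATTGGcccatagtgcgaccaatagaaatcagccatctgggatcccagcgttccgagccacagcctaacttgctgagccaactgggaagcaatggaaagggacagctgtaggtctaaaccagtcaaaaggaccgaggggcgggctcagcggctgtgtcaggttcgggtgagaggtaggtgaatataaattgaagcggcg
The match began 65 bases before the start in Hspa5 and 98 before it in Pdia6, both on the gene's strand. In Hsp90b1 the matches began 212 bases before the start on the gene's strand and 107 before it on the other, and in Calr 162 bases before it on the other strand.

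Pdia4, the gene with the largest fall in PFC, has no exact match to these letters in its window, chr6:47813463-47813762 on the minus strand. It is shown for its 3 CCAAT boxes (CCAAT on either strand, in capitals), a motif of general promoters found in 9 of the 10 windows and in 37.4% of all windows; every ERSE match contains 1.
Pdia4: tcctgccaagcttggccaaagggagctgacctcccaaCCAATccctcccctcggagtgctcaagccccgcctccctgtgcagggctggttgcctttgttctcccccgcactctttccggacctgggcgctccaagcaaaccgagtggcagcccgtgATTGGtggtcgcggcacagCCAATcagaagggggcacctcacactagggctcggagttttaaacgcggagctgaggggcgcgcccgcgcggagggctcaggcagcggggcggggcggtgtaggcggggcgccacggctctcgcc
The elements ERSE-II (ATTGG and CCACG with 1 base between), TGACGTGG (a site of XBP1 and ATF6) and TGATGCAAT (a C/EBP-ATF composite element) were found in 0 of the 10 windows, against 0.0365%, 0.676% and 0.192% of all windows. These matches describe letters only, and near matches were not counted. In the Pdia4 window AGTGG stands 9 bases before an ATTGG, where ERSE on the other strand has CGTGG. That window also ends before the start of Pdia4 in GENCODE M21 is reached. Of the genes whose windows hold ERSE, 18 were tested in PFC and 19 in striatum, where 0 were called, against 0.028% of all genes. In PFC Hspa5 and the co-chaperone gene Dnajc3 were called lower among them, where 2.28% of all genes were, and Acacb higher, where 3.45% were, and the median log2 fold change of the 18 was -0.02, against -0.01 for all genes.

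In PFC, 2 of the 10 genes fell in lesioned libraries and 0 rose, at an adjusted p below 0.05 in edgeR's quasi-likelihood test. They are Pdia4, a disulfide isomerase of the ER lumen, which fell by 23.6%, and Hspa5, which fell by 13.8%. Over all 14018 genes tested, 5.73% were called, with 2.28% lower and 3.45% higher. Lesioned libraries lay wholly below control libraries for 4 of the 10 genes, the pair above with Pdia6 and Xbp1, against 10.9% of all genes. Of the 10 log2 fold changes 8 were below 0, with a median of -0.11, against -0.01 over all genes tested.

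Pdia4 had 34.9, 35.7 and 31.7 CPM in the lesioned PFC libraries, against 42.2, 46.5 and 44.3 CPM in the control PFC libraries. The groups did not overlap, and lesioned library 3 was the lowest of all. The log2 fold change was -0.39 (SE 0.07, 95% interval -0.53 to -0.24, adjusted p = 0.00565).

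Hspa5 had 239.7, 235 and 233 CPM in the lesioned PFC libraries, against 258, 283 and 273 CPM in the control PFC libraries. The 3 lesioned libraries lay close together and below every control. The log2 fold change was -0.21 (SE 0.05, 95% interval -0.31 to -0.11, adjusted p = 0.0170). Leaving out lesioned library 1, 2 or 3 gave adjusted p = 0.0558, 0.0984 and 0.0900 for Hspa5, in that order, with log2 fold changes of -0.23, -0.21 and -0.20, and each of these ended its call. The fit of all 12 libraries, which also changes the genes tested and the scaling, gave -0.20 (SE 0.08, adjusted p = 0.336). Pdia4 kept its call in each of these fits, with adjusted p = 0.0456 over all 12 libraries, in which 0.206% of genes were called, 0.131% lower and 0.0756% higher.

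Markers of astrocytes moved with Hspa5, Pdia4 and Pdia6. The 8 astrocyte markers, all in the table and none at 0 in a group, summed to between 1367 and 1432 CPM in lesioned PFC, against 1533 to 1669 CPM in control PFC, and to between 1467 and 1697 CPM in lesioned striatum, against 1784 to 1949 CPM in control striatum. The groups did not overlap in either region. In PFC 5 of the 8 were called lower, against 2.28% of all genes, and in striatum 0, against 0.021%. Endothelial and mural markers summed to between 291 and 310.1 CPM in lesioned PFC, against 317 to 342 CPM in control PFC, with 2 of 8 called lower. In striatum these sums overlapped, with 239 to 264 CPM in lesioned libraries and 250 to 288 CPM in controls. Of the other lists in PFC, 1 of 8 oligodendrocyte and 1 of 8 microglial markers were called lower. Of the cortical excitatory neuron markers 1 of 8 was called higher, against 3.45% of all genes. The part of these cell types in the lower counts of the 3 ER genes was not tested.

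Pdia6, another disulfide isomerase of the ER lumen, had 89.8, 93.8 and 90.1 CPM in the lesioned PFC libraries, against 99.4, 98.6 and 104 CPM in the control PFC libraries. The groups did not overlap, but the estimate of -0.15 on the log2 scale (SE 0.05, 95% interval -0.26 to -0.05) did not pass the threshold (adjusted p = 0.0962). Pdia3 had 176, 180.3 and 193 CPM in the lesioned PFC libraries, against 191, 202 and 189.7 CPM in the control PFC libraries, and the log2 fold change was -0.10 (SE 0.05, adjusted p = 0.296). Its groups overlapped through lesioned library 3, the highest of the lesioned libraries. Of the 3 isomerase genes only Pdia4 was called in PFC. Without a stated strand setting, reads of Pdia3 and Pdia6 cannot be told from those of the antisense genes Catsper2 and Atp6v1c2, which had at most 126 and 121 counts, where Pdia3 had at least 2636 and Pdia6 at least 1260.

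None of the other chaperone genes was called in PFC. Hsp90b1 had 319, 317 and 331 CPM in the lesioned PFC libraries, against 314, 321 and 313 CPM in the control PFC libraries, and the log2 fold change was 0.02 (SE 0.04, 95% interval -0.07 to 0.11, adjusted p = 0.867). Calr had 312, 312 and 311 CPM in the lesioned PFC libraries, against 311, 305 and 318 CPM in the control PFC libraries, and the log2 fold change was -0.01 (SE 0.04, 95% interval -0.10 to 0.08, adjusted p = 0.921). Neither interval reaches the estimate of Hspa5 or of Pdia4. Dnajb9, whose product ERdj4 binds BiP and is a target of XBP1, had 41.0, 39.5 and 45.6 CPM in the lesioned PFC libraries, against 46.2, 43.7 and 47.0 CPM in the control PFC libraries. Lesioned library 3 overlapped the controls while the other lesioned libraries were lower, and the log2 fold change was -0.13 (SE 0.07, adjusted p = 0.303).

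None of the 3 transcription factor genes was called in PFC. Xbp1 had 77.7, 75.7 and 78.4 CPM in the lesioned PFC libraries, against 83.0, 84.6 and 80.7 CPM in the control PFC libraries; the groups did not overlap, and the log2 fold change was -0.11 (SE 0.05, adjusted p = 0.226). Atf4 had 112, 104 and 110.3 CPM in the lesioned PFC libraries, against 106, 113 and 115 CPM in the control PFC libraries, and the log2 fold change was -0.04 (SE 0.05, adjusted p = 0.682). Its lesioned and control libraries were mixed in order. Ddit3 had 16.3, 13.0 and 15.4 CPM in the lesioned PFC libraries, against 14.9, 13.0 and 15.7 CPM in the control PFC libraries, and the log2 fold change was 0.03 (SE 0.11, 95% interval -0.21 to 0.27, adjusted p = 0.923). The wide interval of Ddit3 goes with its low counts, and its gene overlaps the antisense gene Mars in the GENCODE M21 annotation.

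**Figure D2:**
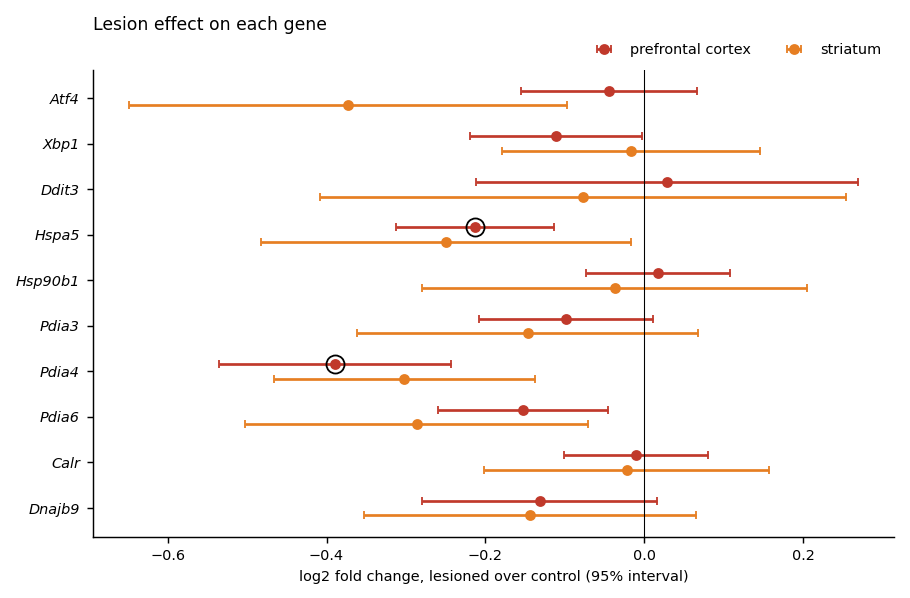
Log2 fold change of the 10 genes, lesioned over control, with 95% intervals, in PFC and in striatum. Points inside a black ring are called at an adjusted p below 0.05. In PFC the called genes are Pdia4 at -0.39 and Hspa5 at -0.21, and in striatum none is called although all 10 estimates lie below 0.

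In striatum all 10 genes had log2 fold changes below 0, with a median of -0.15, against -0.00 over all genes tested, but 0 of the 10 were called at an adjusted p below 0.05 by edgeR's quasi-likelihood test or by DESeq2. At an unadjusted p below 0.05 there were 4, namely Pdia4, Atf4, Pdia6 and Hspa5. Over all 14288 genes tested, 0.028% were called, 0.021% lower and 0.007% higher. For those 4 genes the lesioned striatal libraries lay wholly below the controls, against 12.7% of all genes. When the spread was taken from all 12 libraries, Pdia4 (adjusted p = 0.0266), Pdia6 (adjusted p = 0.0402) and Atf4 (adjusted p = 0.0414) were called lower and Hspa5 was not (adjusted p = 0.0697), where 7.15% of all genes were called, 3% lower and 4.15% higher.

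Striatal projection neuron markers summed to between 4366 and 11395 CPM in lesioned striatum, against 1911 to 3226 CPM in control striatum, and the sum was highest in lesioned library 1, which was also the lowest of the lesioned striatal libraries for Atf4, Hsp90b1, Pdia3, Pdia6 and Dnajb9. Other marker sums also separated the striatal groups without overlap. Meningeal fibroblast markers summed to between 19.7 and 32.0 CPM in lesioned striatum, against 60.7 to 84.8 CPM in control striatum. Choroid plexus and ependymal markers summed to between 45.0 and 61.2 CPM in lesioned striatum, against 76.4 to 2232 CPM in control striatum, and microglial markers to between 417 and 524 CPM in lesioned striatum, against 333 to 411 CPM in control striatum. By edgeR 0 markers of these lists were called in striatum, where 0.028% of all genes were. The part of these cell types, and of dissection, in the striatal values was not tested.

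Atf4 had 63.7, 83.0 and 85.4 CPM in the lesioned striatal libraries, against 94.1, 102 and 103 CPM in the control striatal libraries. The groups did not overlap, and lesioned library 1 was far lower than the other lesioned libraries. The log2 fold change was -0.37 (SE 0.12, 95% interval -0.65 to -0.10, adjusted p = 0.213), and without lesioned library 1 and control library 2 it was -0.23 (SE 0.08, adjusted p = 0.236). Xbp1 had 73.7, 78.9 and 73.2 CPM in the lesioned striatal libraries, against 74.8, 73.7 and 79.1 CPM in the control striatal libraries, and the log2 fold change was -0.02 (SE 0.07, adjusted p = 0.914). Ddit3 had 14.9, 13.5 and 10.6 CPM in the lesioned striatal libraries, against 13.4, 14.0 and 13.5 CPM in the control striatal libraries, and the log2 fold change was -0.08 (SE 0.14, adjusted p = 0.794). The groups overlapped for Xbp1, and for Ddit3 the lesioned libraries lay on both sides of the controls.

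Hspa5 had 234, 276 and 228 CPM in the lesioned striatal libraries, against 289.7, 282 and 302 CPM in the control striatal libraries. The groups did not overlap, though lesioned library 2 came close to the lowest control. The log2 fold change was -0.25 (SE 0.10, 95% interval -0.48 to -0.02, adjusted p = 0.264), and -0.23 (SE 0.10, adjusted p = 0.347) without lesioned library 1 and control library 2. Pdia4 had 40.4, 40.5 and 37.7 CPM in the lesioned striatal libraries, against 50.1, 48.2 and 47.5 CPM in the control striatal libraries. Its groups did not overlap and its spread was small in both, and the log2 fold change was -0.30 (SE 0.07, 95% interval -0.47 to -0.14, adjusted p = 0.169). Without that pair of libraries it was -0.32 (SE 0.08, adjusted p = 0.149).

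Pdia6 had 77.4, 90.5 and 88.2 CPM in the lesioned striatal libraries, against 95.1, 107 and 109 CPM in the control striatal libraries. The groups did not overlap, lesioned library 1 was the lowest, and the log2 fold change was -0.29 (SE 0.09, adjusted p = 0.216). Without the pair that stood apart it was -0.20 (SE 0.09, adjusted p = 0.361). Pdia3 had 162, 193 and 169 CPM in the lesioned striatal libraries, against 195, 183 and 199 CPM in the control striatal libraries, and the log2 fold change was -0.15 (SE 0.09, adjusted p = 0.426). Lesioned library 2 lay inside the control range of Pdia3.

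Hsp90b1 had 315, 383 and 338 CPM in the lesioned striatal libraries, against 363, 323 and 372 CPM in the control striatal libraries, and the log2 fold change was -0.04 (SE 0.10, adjusted p = 0.868). Calr had 298, 310.1 and 288 CPM in the lesioned striatal libraries, against 298, 298 and 309.8 CPM in the control striatal libraries, and the log2 fold change was -0.02 (SE 0.08, adjusted p = 0.895). Both genes had overlapping groups, and the lesioned library with the highest value was library 2 for each. Dnajb9 had 35.8, 42.8 and 43.2 CPM in the lesioned striatal libraries, against 45.5, 42.9 and 45.6 CPM in the control striatal libraries, and the log2 fold change was -0.14 (SE 0.09, adjusted p = 0.425). Lesioned library 1 was the lowest for Dnajb9, and lesioned library 3 overlapped the controls.

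Hspa5, Pdia4 and Pdia6 were the 3 of the 10 genes whose lesioned libraries lay wholly below the controls in both regions, against 3.05% of all genes, and 0 of the 10 lay wholly above in both, against 3.7%. Whether PFC and striatal libraries came from the same mice is not stated, so the 2 regions may not be independent. A lesion effect averaged over both regions, a contrast added after the genes had been seen to be lower in each, called those 3 lower. Its fit took all 12 libraries as independent. Pdia4 was at -0.34 (log2 scale, SE 0.05, adjusted p = 0.00298), Hspa5 at -0.22 (SE 0.05, adjusted p = 0.0326) and Pdia6 at -0.21 (SE 0.05, adjusted p = 0.0326), where 6.34% of all genes were called, 2.79% lower and 3.55% higher. Atf4 was at -0.20 (SE 0.07, adjusted p = 0.0903), and Hsp90b1 and Calr were at -0.00 and -0.01. Pdia4 kept its call without any 1 of the 12 libraries. The call of Hspa5 was lost without any of 9 libraries, the 6 of PFC, lesioned striatal library 3 and control striatal libraries 1 and 3, with a highest adjusted p of 0.0849. That of Pdia6 was lost without any of 8, the 6 of PFC and control striatal libraries 2 and 3, with a highest adjusted p of 0.0831.

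The lesion effects did not differ between regions for any of the 10 genes at an adjusted p below 0.05, where 0.0825% of all genes were called. Atf4 had the largest difference, with an effect in striatum that was lower by 0.33 on the log2 scale (SE 0.13, unadjusted p = 0.0282, adjusted p = 0.378), and it was the only 1 of the 10 at an unadjusted p below 0.05 in edgeR. Without lesioned striatal library 1 and control striatal library 2 the difference of Atf4 was -0.19 (SE 0.09, adjusted p = 0.455). By DESeq2 0 of the 10 were called either. The 95% interval of the difference was -0.28 to 0.19 for Hspa5, -0.12 to 0.28 for Pdia4 and -0.36 to 0.08 for Pdia6. Differences between regions of any size within those intervals are compatible with these values.

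Ratios of counts within a library do not depend on library scaling. They reuse the counts of the genes described above, so they are not separate evidence. The ratio of Hspa5 to Hsp90b1 was 0.751, 0.740 and 0.704 in lesioned PFC, against 0.821, 0.882 and 0.871 in control PFC, and 0.742, 0.722 and 0.675 in lesioned striatum, against 0.799, 0.873 and 0.812 in control striatum. All 6 lesioned libraries lay below all 6 control libraries. The ratio of Hspa5 to Calr was 0.769, 0.752 and 0.748 in lesioned PFC, against 0.828, 0.927 and 0.859 in control PFC, and 0.785, 0.891 and 0.792 in lesioned striatum, against 0.973, 0.947 and 0.975 in control striatum. It did not overlap within either region. Hspa5 counts were thus lower relative to those of Hsp90b1 and Calr, whose windows also hold ERSE, in every lesioned library than in any control library of its region.

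Pdia6 relative to Hsp90b1 averaged 0.283 ± 0.0117 in lesioned PFC and 0.318 ± 0.0121 in control PFC, and 0.248 ± 0.0124 in lesioned striatum and 0.295 ± 0.0340 in control striatum (SD, n = 3 each), with no overlap in either region. Pdia4 relative to Hsp90b1 averaged 0.106 ± 0.00874 in lesioned PFC and 0.140 ± 0.00536 in control PFC without overlap, and 0.115 ± 0.0116 in lesioned striatum and 0.138 ± 0.0107 in control striatum with overlap. Among the isomerases, Pdia4 relative to Pdia3 was lower without overlap in PFC and overlapped in striatum, and Pdia6 relative to Pdia3 overlapped in both. The two-sided exact permutation p was 0.1 for each ratio without overlap, which is the smallest that 3 against 3 allows, 0.2 for the overlapping ratios in striatum and 0.5 for Pdia6 to Pdia3 in PFC, so no ratio of the 6 examined could pass 0.05 before or after adjustment for the 12 tests.

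**Figure D3:**
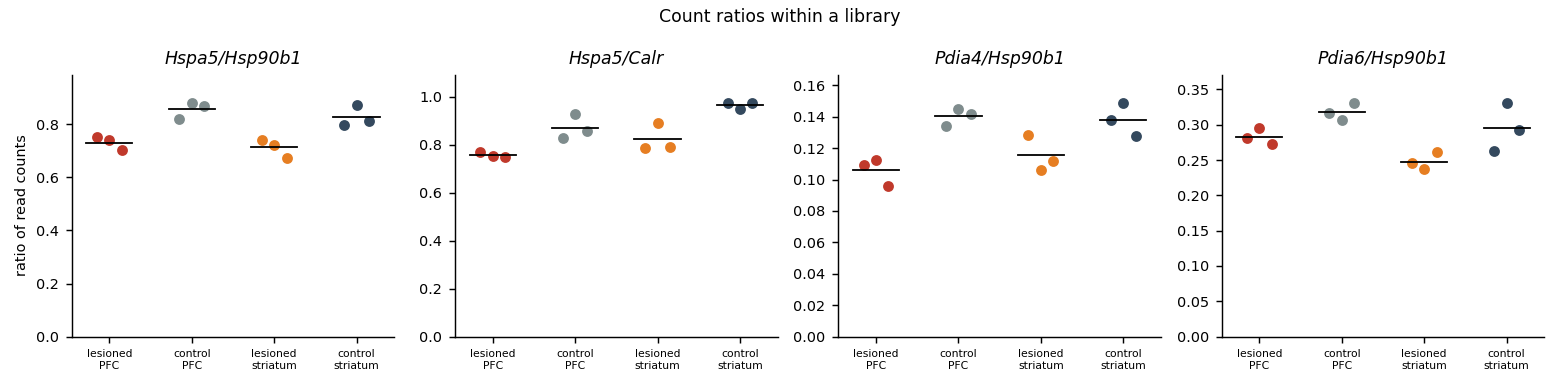
Ratios of counts between pairs of the 10 genes in each library (points) with group means (bars), lesioned left of control in each region, y axes from 0. Hspa5 over Hsp90b1 runs from 0.675 to 0.751 in the 6 lesioned libraries and from 0.799 to 0.882 in the 6 control libraries.

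Between the control regions, 0 of the 10 genes were called for striatum over PFC, where 42.3% of all genes were called, 21.3% higher and 21% lower. Hsp90b1 and Pdia4 lay wholly above PFC in the control striatal libraries, against 27.4% of all genes, and Atf4 and Xbp1 lay wholly below, against 27.5%. Hsp90b1 averaged 353 ± 26.0 CPM in control striatum and 316 ± 4.34 CPM in control PFC (SD, n = 3 each). Its difference on the log2 scale was 0.16 with an SE of 0.07 (edgeR adjusted p = 0.0903). Atf4 averaged 99.7 ± 4.88 CPM in control striatum and 111 ± 4.46 CPM in control PFC (log2 fold change -0.16, SE 0.06, adjusted p = 0.0756). The largest difference of the 10 was thus 11.9%, that of Hsp90b1. At an unadjusted p below 0.05 there were 2 of the 10 in edgeR, Atf4 and Hsp90b1, and DESeq2 also called 0. Hsp90b1 was called without control striatal library 2 (0.22, SE 0.05, edgeR adjusted p = 0.00618), where 6805 of 14359 genes were called. That library is the one with choroid plexus markers. It also had 923 CPM of cortical excitatory neuron markers, against 77.6 and 149 CPM in the other control striatal libraries. Upper-quartile scaling called Hsp90b1 and Pdia4 higher, where 3580 of 14239 genes were called higher and 2509 lower. A correction for GC content and length called Atf4 and Xbp1 lower, where 3625 of 14098 genes were called lower and 2649 higher. Both settings shift all genes: the median log2 fold change over all genes was 0.07 and -0.03, in that order, against 0.02 by default.

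Beyond the 10 genes, 123 genes in 7 lists cover the rest of the ER stress response. In PFC 120 were tested, 4 fell and 0 rose, a share of 3.33% beside the 5.73% of all genes. In the fit of all 12 libraries 0 of 122 were called, where 0.206% of all genes were, so the 4 calls were lost there. The 4 were the BiP co-chaperone gene Dnajc3 (-0.24, SE 0.06, adjusted p = 0.0334), Sdf2l1, whose product forms a complex with ER chaperones of the DnaJ family (-0.42, SE 0.11, adjusted p = 0.0463), Selenof, an ER selenoprotein that binds the glycoprotein-folding sensor UGGT (-0.23, SE 0.05, adjusted p = 0.0142), and Prkcsh, the beta subunit of glucosidase II (-0.20, SE 0.05, adjusted p = 0.0356). Dnajc3 had 64.6, 65.3 and 59.4 CPM in lesioned PFC, against 75.0, 78.1 and 69.2 CPM in control PFC, and 60.0, 72.7 and 65.4 CPM in lesioned striatum, against 81.6, 78.1 and 78.5 CPM in control striatum. Among the listed genes 6 lay wholly below their controls in both regions, against 3.05% of all genes, namely Dnajc3, Sdf2l1, Nupr1, Ube2j2, Ssr2 and Tram1. Eif2ak3, which encodes PERK, and Sec63 lay wholly above in both, against 3.7% of all genes.

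By list, the other ER chaperones and co-chaperones had a median log2 fold change of -0.12 in PFC, with 11 of 14 below 0 and 2 called lower, close to the -0.11 of the 10 genes. The other disulfide isomerases and oxidoreductases had a median of -0.04 with 1 of 16 called lower, and calnexin with N-glycan quality control one of -0.01 with 1 of 13 called lower. No gene was called among the 13 sensors and transducers (median -0.07), the 23 tested targets of ATF4 and CHOP (median 0.01), the 24 genes of ER-associated degradation (median -0.04) or the 17 of the translocon and signal peptide processing (median -0.05). In those 4 lists the genes with the smallest p were Mbtps2, Nupr1, Aup1 and Sec61g. Mbtps2, a protease that cuts ATF6, was at 0.21 (SE 0.07, adjusted p = 0.0929) and Nupr1 at -0.38 (adjusted p = 0.131). Aup1 was at -0.14 (adjusted p = 0.258) and the translocon subunit gene Sec61g at -0.26 (adjusted p = 0.0923).

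In striatum 0 of the 122 listed genes tested were called, where 0.028% of all genes were. The 25 targets of ATF4 and CHOP had a median log2 fold change of -0.14, with 20 below 0 and 10 whose lesioned libraries lay wholly below the controls, against 12.7% of all genes. Without lesioned library 1 and control library 2 the median of these targets was -0.06, with 15 of 25 below 0 and 0 called. Among them the glutathione-degrading enzyme gene Chac1 had 3.68, 3.81 and 4.80 CPM in lesioned striatum, against 6.18, 6.27 and 5.99 CPM in control striatum, while Phgdh, the first enzyme of serine synthesis, had 80.6, 82.9 and 83.4 CPM in lesioned striatum, against 54.5, 60.1 and 65.5 CPM in control striatum. Phgdh had the smallest p of the list, at 0.45 on the log2 scale (SE 0.08) with adjusted p = 0.142. In the other lists the smallest p in striatum was that of Creb3l1 at -0.81 (adjusted p = 0.227), Dnajc3 at -0.27 (adjusted p = 0.211), Erp29 at -0.16 (adjusted p = 0.359), Ddost at 0.13 (adjusted p = 0.329), Edem1 at 0.21 (adjusted p = 0.255) and Ssr2 at -0.16 (adjusted p = 0.307). The medians of the other 6 lists lay between -0.09 and 0.03. With the spread of all 12 libraries 5 listed genes were called in striatum, Phgdh higher and 4 targets of ATF4 and CHOP lower, namely Sesn2, Slc7a11, Slc7a5 (-0.36, adjusted p = 0.0257) and Chac1 (-0.58, adjusted p = 0.0332), against 7.15% of all genes. In the average over regions 5 of 122 listed genes were called, Phgdh higher (0.28, adjusted p = 0.0300) and Dnajc3 (-0.25, adjusted p = 0.0217), Sdf2l1 (-0.33, adjusted p = 0.0297), Selenof (-0.17, adjusted p = 0.0297) and Slc7a11 (-0.22, adjusted p = 0.0428) lower, against 6.34% of all genes. For the difference between regions 0 of 122 were called, against 0.0825% of all genes.

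**Figure D4:**
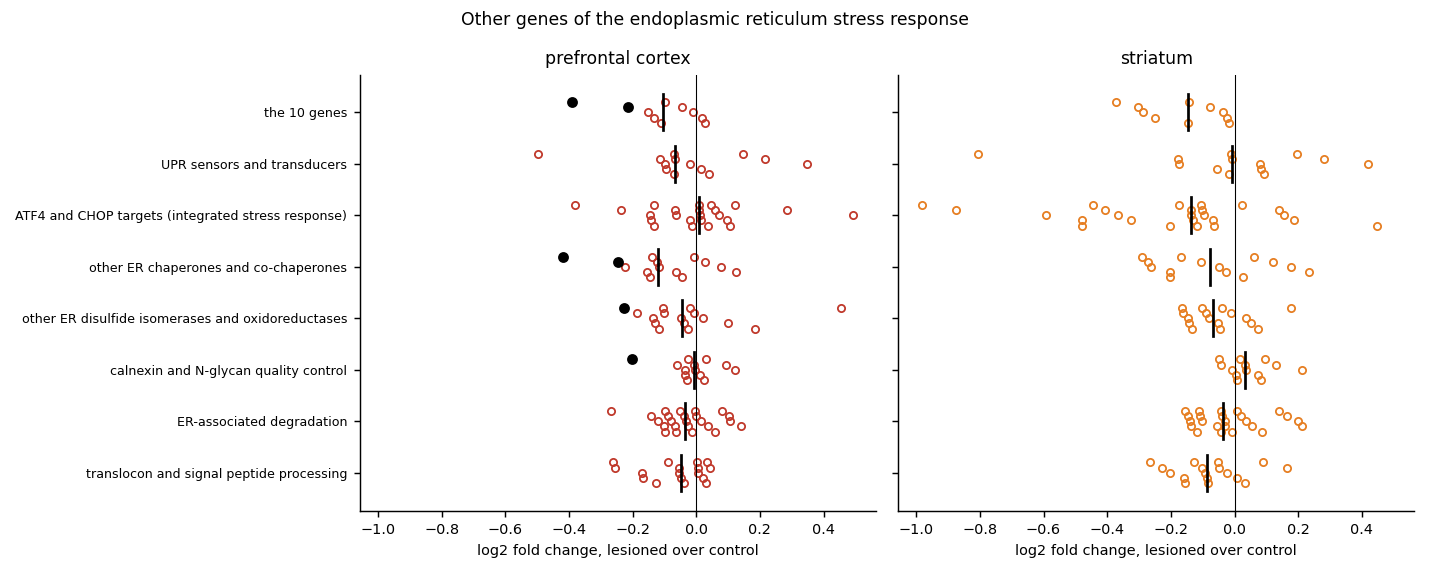
Log2 fold change, lesioned over control, of every tested gene in the 10 and in 7 lists of the ER stress response (points), with list medians (bars), in PFC and in striatum; filled points are called at an adjusted p below 0.05. The median of the 10 genes is -0.11 in PFC and -0.15 in striatum, and the 6 filled points, all in PFC, are Pdia4, Hspa5, Dnajc3, Sdf2l1, Selenof and Prkcsh.

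Between the control regions, 21 listed genes were higher in striatum and 19 lower of 121 tested, a share of 33.1% beside the 42.3% of all genes, while 0 of the 10 genes were called. Among those lower in striatum was the sensor gene Atf6 (-1.02, SE 0.12, adjusted p = 3.15e-04), and among those higher were the isomerase gene Txndc5 (0.51, SE 0.08, adjusted p = 0.00157) and the ER chaperone gene Hyou1 (0.32, SE 0.07, adjusted p = 0.00935).

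Over the 12 libraries, the genes most like Hspa5 were found by the root mean square difference of log2 CPM, each gene centred and scaled to SD 1, among 13681 genes above 1 CPM on average. The 5 nearest were Sema3d (0.353), Chchd3 (0.358), Pcyt1a (0.376), Dbx2 (0.394) and Mtss2 (0.416), and none of them is in the 7 lists. Of the other 9 ER stress genes, Pdia4 was nearest to Hspa5, at rank 21 with 0.495, followed by Pdia6 at rank 183 and Pdia3 at rank 199. Calr and Ddit3, at ranks 4930 and 6533, were the farthest. Mtss2, which encodes an actin-regulating protein, fell in PFC (log2 fold change -0.52, SE 0.05, adjusted p = 2.09e-04), as did the homeobox gene Dbx2 (-0.54, SE 0.11, adjusted p = 0.0144), and in striatum, where neither was called, the estimates were -0.62 for Mtss2 (SE 0.11, adjusted p = 0.135) and -0.61 for Dbx2 (SE 0.14, adjusted p = 0.169). The 5 genes were picked on these same values, so their lower estimates in lesioned libraries follow in part from that choice. Such likeness over libraries that share groups is a description of these values only.

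**Figure D5:**
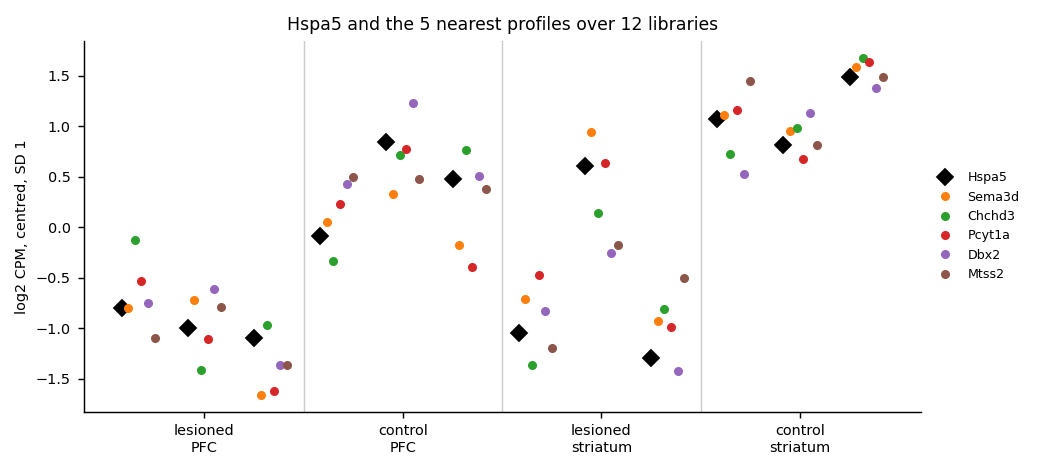
Log2 CPM, centred and scaled to SD 1 over the 12 libraries, of Hspa5 (diamonds) and the 5 genes with the nearest profiles (circles), by group, with the libraries of a group side by side. All 3 lesioned PFC libraries lie below 0 for the 6 genes, and all 3 control striatal libraries lie above 0.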

How the data were processed

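mRNA from prefrontal cortex and striatum was sequenced in 12 libraries, with paired reads of 101 bp from a stranded kit, per the labels' protocols. The deposited values are whole-number counts per gene symbol, which the authors made with STAR 2.7.1a and featureCounts on mm10, per the submitters' processing notes. Whether counting used strand, and how reads with several matches were handled, is not stated there. Genes whose counts were only multiples of 11 in every library (1830 symbols, 0.144% of counts, 0 of the 10 genes) were left out.

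The counts were tested with edgeR 4.0.16 (R 4.3.3; filterByExpr, TMM factors, quasi-likelihood test, Benjamini-Hochberg adjustment over all genes tested, threshold 0.05), on the 6 libraries of each comparison, and on all 12 for the difference between regions and the average over regions. Fold changes are log2, lesioned over control or striatum over PFC. CPM values use TMM library sizes, and CPM per kb divides by exon length in GENCODE M21. The floor of 3 counts is 0.143 to 0.199 CPM per library. Ratios were compared with exact permutation tests. The scripts were tested on simulated data. Alternatives were other size factors, DESeq2 1.42.0, limma 3.58.1, other filters, a replicate block, a correction for GC content and length, a fit of all 12 libraries and leaving out libraries.

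The 10 genes and the lists were chosen with earlier results of these data known. The rule for naming took from each list and comparison up to 3 called genes with the smallest p, or, where none was called, the gene with the smallest p, of which those for the difference between regions, the average and the control regions are named only in part, and also the 5 genes with the profile nearest to Hspa5. Genes counted in groups of 6 or fewer outside this rule were named after their values were seen, and the average over regions and the fits without 2 striatal libraries were added after seeing the data.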

Additional observations from a re-analysis of the deposited data

Results flagged for a closer look

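Only the listed genes picked by the naming rule, for a call or the smallest p of their list, were searched for opposite separation in the regions. Among those picked, 2 had all lesioned libraries on one side of the controls in PFC and on the opposite side in striatum. The remaining listed genes were not searched, and no share of all genes with such separation is given for comparison. Slc7a5, an amino acid transporter gene among the targets of ATF4, had a log2 fold change of -0.37 in striatum and 0.11 in PFC. The difference was -0.48 (SE 0.11) and did not pass the test (adjusted p = 0.208, edgeR's quasi-likelihood test). Ganab, the catalytic subunit gene of glucosidase II, had a log2 fold change of 0.10 in striatum and -0.03 in PFC, and the difference of 0.12 (SE 0.07) did not pass either (adjusted p = 0.552, edgeR's quasi-likelihood test).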

How the results depend on the processing

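The count of the 10 genes called in PFC, 2 by default, was 1 in the fit of all 12 libraries and 1 to 2 when single libraries were left out, with Pdia4 in each. In striatum it was 0 by default and 3 in the fit of all 12 libraries. For the average over regions, 3 by default, it was 1 to 3 when single libraries were left out. For control striatum over control PFC, 0 by default, it was 2 with upper-quartile factors, 2 with the correction for GC content and length, and 0 to 1 when single libraries were left out. For the difference between regions it was 0 under every alternative run. With the replicate block the count was 2 in PFC, where Hspa5 had an adjusted p of 0.0385 by edgeR, and 0 in striatum, for the difference and between regions. Same-numbered libraries had correlations of deviations between -0.11 and 0.09 over 12 pairs. Differently numbered libraries were not compared with these, so whether replicate numbers pair the samples cannot be told. The cause of these moves was not tested. Over all genes, the 803 called in PFC became 30 in the fit of all 12 libraries and 195 to 1010 without single libraries. The 4 called in striatum became 529 by DESeq2, 0 by limma-voom, 0 with multiples of 11 kept, 0 with the block, 13 with the GC and length correction, 1040 in the fit of all 12 libraries, 0 to 2 without single libraries and 55 without lesioned library 1 and control library 2. The 12 called for the difference became 116 by DESeq2, 2 by limma-voom, 5 with multiples of 11 kept, 6 with the block, 0 with group weights, 0 to 172 without single libraries and 101 without that pair. The 922 called for the average became 1477 by DESeq2 and 347 to 1769 without single libraries. Between the control regions, the 6029 called became 6089 with upper-quartile factors, 6274 with the GC and length correction and 4665 to 6805 without single libraries. Ddit3 had the lowest counts of the 10 genes, 182 to 310 per library.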
